A study of Mus musculus with 2 samples.

Results

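Broad open regions of undifferentiated mouse embryonic stem cells (ESCs) were taken as the stretches of chromatin that were listed as runs of 4 or more adjoining ATAC-seq peaks in WT cells. WT peaks lying at most 100 bp apart were merged, and merged regions holding at least 4 peaks on autosomes and outside assembly gaps were kept. This rule selected 1083 of 52419 merged autosomal WT regions, and these broad regions held 4944 of 69290 WT peaks. Since the WT list chose the regions, their number of WT peaks and their width are a description only.

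The samples were E14 mouse ESCs (WT) and Uhrf1 KO E14 ESCs, both labelled undifferentiated and grown with serum and leukemia inhibitory factor on plates coated with gelatin or mouse embryonic fibroblasts (MEFs), so that feeder cells may be present. The mutant was a single KO line lacking Uhrf1, a protein that reads methylated histone H3 and hemimethylated DNA and helps to maintain DNA methylation. In ATAC-seq, 50000 cells were lysed per sample and a transposase inserted sequencing adapters into DNA that nucleosomes leave free. With 1 library per genotype and no read counts in the files, the genotypes cannot be tested, the depth behind a peak is unknown, and all intervals given below are 95% exact binomial intervals that cover counting error only.

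In mammalian cells, open chromatin at promoters and enhancers mostly takes the form of short gaps between nucleosomes. Promoters in CpG islands, which are rich in G, C and the CpG dinucleotide and are usually free of DNA methylation, can be open over a longer stretch. In ESCs such promoters serve housekeeping genes as well as many developmental genes that are kept silent by Polycomb proteins.

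The deposited peaks were 101 bp wide, so that a broad region appears as a chain of short peaks. To show what such a chain covers, the central 300 bp of 1 region is given, read from the plus strand of NCBIM37, the assembly of mm9, with each CpG in capitals. Arhgef7, a nucleotide exchange factor for small GTPases, was the region with most WT peaks among those without any KO peak (8 and 0). Its window, chr8:11727768-11728067, lies just upstream of the gene, held 51 CpGs and had a GC content of 76.7%.
Arhgef7: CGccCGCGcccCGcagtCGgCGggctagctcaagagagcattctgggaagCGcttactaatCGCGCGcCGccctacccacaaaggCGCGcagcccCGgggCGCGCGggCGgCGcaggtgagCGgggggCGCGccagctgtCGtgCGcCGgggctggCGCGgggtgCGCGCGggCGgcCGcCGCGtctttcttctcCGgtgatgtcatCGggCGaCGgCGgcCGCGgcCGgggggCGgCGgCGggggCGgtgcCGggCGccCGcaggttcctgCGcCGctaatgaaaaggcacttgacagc

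Most broad regions were only as large as the rule demanded. 692 of the 1083 regions (63.9%) consisted of 4 WT peaks and 255 (23.5%) of 5, while 83 held 6, 30 held 7, 17 held 8, 4 held 9, and 1 each held 10 and 11. Their width ran from 272 to 1234 bp with a median of 439 bp (quartiles 377 and 519 bp). Starts of neighbouring peaks in a region were 50 to 201 bp apart with a median of 83 bp, and 2322 of 3861 neighbouring pairs (60.1%) shared bases. In the other 1539 pairs the peaks were separated by an unlisted gap of up to 100 bp. At the threshold, the narrowest regions of 4 peaks lay nearest to Gm13576 (272 bp, 2 KO peaks), E130309F12Rik (276 bp, 1 KO peak) and 2310035K24Rik (277 bp, 4 KO peaks), and the widest nearest to Tmed3 (633 bp, 4 KO peaks), Rimklb (638 bp, 3 KO peaks) and Ccnh (640 bp, 4 KO peaks). Just outside it, with 3 WT peaks, were narrow regions nearest to Gata2 (204 bp, 1 KO peak), Clec14a (206 bp, 2 KO peaks) and Ywhag (207 bp, 2 KO peaks) and wide ones nearest to Dapk1 (489 bp, no KO peak), AI314180 (490 bp, 2 KO peaks) and Gdf11 (498 bp, 3 KO peaks). Widths of regions on both sides of the threshold thus overlapped, and regions of 3 peaks, of which there were 2258, were the more numerous.

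Of the 23 regions with 8 or more WT peaks, 22 lay within 2 kb of a TSS. The 6 with 9 or more are described here with the 4 widest of the 17 that held 8. The broadest was at Crim1, a transmembrane protein with cysteine-rich repeats that binds bone morphogenetic proteins, on chromosome 17 from 78599075 to 78600308 (mm9). It held 11 WT peaks and 3 KO peaks over 1234 bp with a GC content of 74.1%, and its middle lies in the gene's UTR. The region at Pigp, a subunit of the enzyme that starts the synthesis of GPI anchors, held 10 WT and 7 KO peaks (chromosome 16, 94592231 to 94593248), and its middle lies in an intron of the neighbouring gene Ttc3. Both regions contained a transcription start site (TSS) of the gene they are named after. Fam196a (9 WT and 2 KO peaks, chromosome 7, 142129176 to 142130245), Foxj3, a forkhead transcription factor (9 and 5, chromosome 4, 119211856 to 119212620), and Pde3b, a phosphodiesterase that breaks down cyclic nucleotides (8 and 2, chromosome 7, 121558441 to 121559502), also had a TSS inside. The Pde3b region had a GC content of 77.0% and 164 CpGs, the most of any broad region.

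The same held for Tspan13, a tetraspanin (8 WT and 4 KO peaks, chromosome 12, 36768435 to 36769320), and for Sp1, the zinc finger factor that binds GC boxes (8 and 4, chromosome 15, 102235884 to 102236670). At App, the amyloid precursor protein (9 and 7, chromosome 16, 85172836 to 85173741), the region began 207 bp downstream of the nearest TSS, and at Adamts19, a secreted metalloprotease (8 and 3, chromosome 18, 58995560 to 58996404), it ended 14 bp upstream. The region of 1700064H15Rik (9 and 9, chromosome 3, 19527926 to 19528969) had a GC content of 55.8%. Among all 23 regions with 8 or more WT peaks, it alone had as many KO peaks as WT peaks, and the other 22 had fewer.

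**Figure D1:**
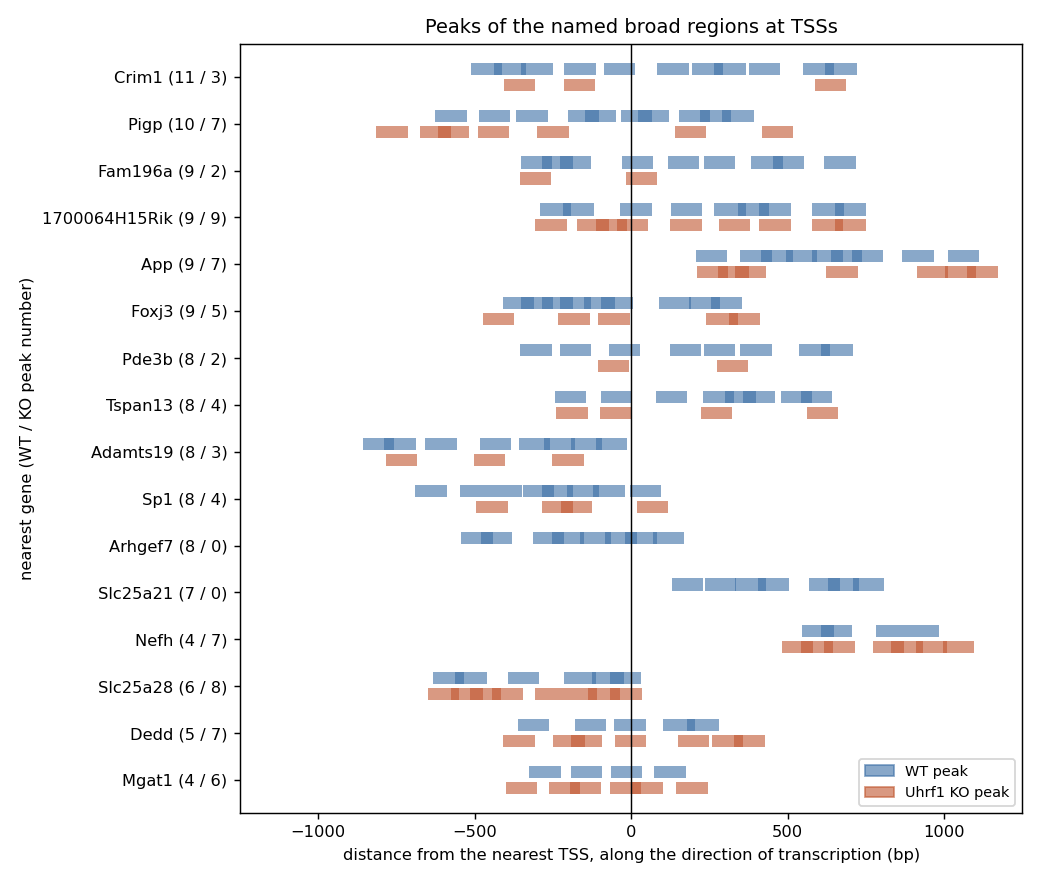
Peaks of named broad regions plotted by distance in bp from the nearest TSS along the direction of transcription; blue bars are WT peaks, red bars Uhrf1 KO peaks, each 101 bp wide, and darker shades mark overlapping peaks. Crim1 has 11 WT and 3 KO peaks, Arhgef7 has 8 WT peaks and no KO peak, and Nefh has 4 WT and 7 KO peaks.

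KO peaks were counted within 100 bp of each broad region. The KO list placed at least 1 peak at 1005 of the 1083 regions (92.8%, 91.1 to 94.3%), so that nearly all broad WT regions were also open in KO by this measure, but with fewer peaks. The regions held 2595 KO peaks against 4944 WT peaks, a ratio of 0.525 (0.50 to 0.551). The median was 2 KO peaks per region (quartiles 1 and 3, range 0 to 9) against 4 WT peaks (quartiles 4 and 5, range 4 to 11). KO had fewer peaks than WT at 964 regions (89.0%), the same number at 86 (7.94%) and more at 33 (3.05%, 2.11 to 4.25%). Over all merged WT regions these shares were 46.8%, 43.7% and 9.44%. 4 or more KO peaks were found at 212 broad regions (19.6%), against 1.09% of all merged WT regions. A KO peak lying within 100 bp of a pair of neighbouring regions counted for both.

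At 635 broad regions (58.6%, 55.6 to 61.6%) the KO number was at most 50% of the WT number, while 44.9% of all merged WT regions met that mark. At 5 regions (0.462%) it was at least 1.5 times the WT number, against 9.13% of all merged WT regions. No KO peak was found at 78 regions (7.20%, 5.73 to 8.91%), against 35.3% of all merged WT regions. These shares move with region size, because a region of 1 WT peak can only keep its peak, lose it or gain more. The share at or below 50% was 39.8% for regions of 1 WT peak, 67.0% for 2 and 45.9% for 3.

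**Figure D2:**
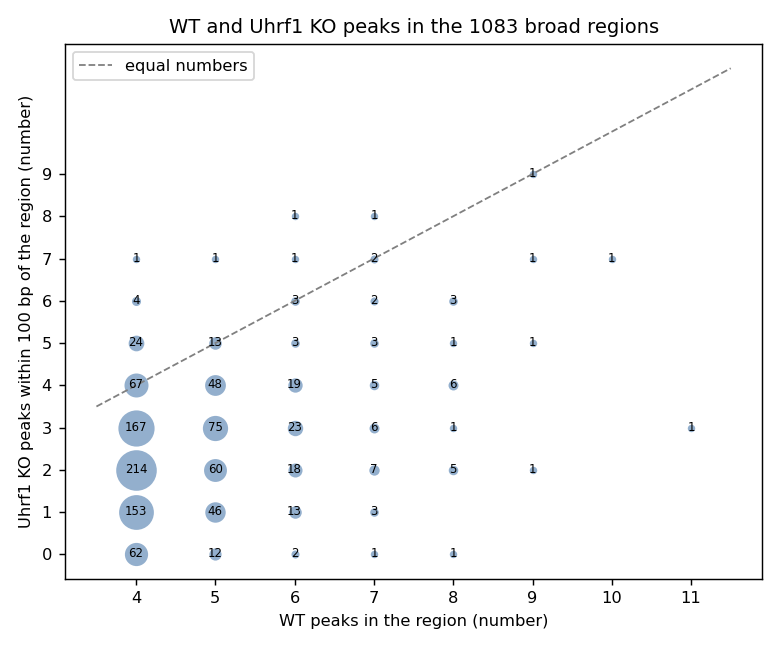
Number of WT peaks in a broad region (horizontal) against number of Uhrf1 KO peaks within 100 bp of it (vertical); circle area and the printed figure give the number of regions, and the dashed line marks equal numbers. 964 of the 1083 regions lie below the line, 86 on it and 33 above it.

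The ratio of KO to WT peaks fell with the number of WT peaks in a region, from 0.720 in regions of 1 WT peak to 0.600 for 2, 0.567 for 3 and 0.525 in broad regions. Among the broad regions it was 0.542 for 4 WT peaks, 0.514 for 5, 0.486 for 6, 0.495 for 7 and 0.482 for 8 or more. The share of regions with any KO peak took the opposite course and rose from 60.2% for 1 WT peak to 77.2%, 85.6% and 92.8%. Part of the lower KO number is set by the choice itself, since regions picked for many peaks in 1 list will on average hold fewer in another. The count also depends on size. Peaks of the other list were counted up to 100 bp beyond a region, where the rule allows no further peak of the choosing list. These margins are a larger part of small regions, with WT or KO choosing, and their part in the fall was not tested.

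When the KO list chose the regions by the same rule, 651 broad KO regions were found, and WT then had fewer peaks. They held 2850 KO peaks and 1972 WT peaks, a WT to KO ratio of 0.692, and this ratio too was lower than in regions of 1, 2 and 3 KO peaks (0.848, 0.774 and 0.723). WT had fewer peaks than KO at 496 of the 651 regions, the same number at 91 and more at 64. Over all 47341 merged KO regions these numbers were 17651, 22886 and 6804. At least 1 WT peak was present at 644 of the 651 broad KO regions (98.9%), against 71.7% of all merged KO regions. Thus each list had fewer peaks in the regions picked from the other, and the gap was wider where WT chose.

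With both lists merged before the rule was applied, 1749 regions held 4 or more peaks of at least 1 list. Of these, 932 reached 4 peaks in WT only, 460 in KO only and 357 in both, and the ratio of KO to WT peaks was 0.772. The WT list is longer than the KO list (71914 and 61640 peaks in all). After the WT list was cut to 61640 peaks by the number in the peak names, a step that assumes that these numbers order the peaks alike in both lists, WT still chose 910 broad regions and KO 651. In the merged set there were then 753 regions of WT only, 472 of KO only and 333 of both. A broad KO region lay within 100 bp of 157 broad WT regions (14.5% of the 1083), and a broad WT region within 100 bp of 155 broad KO regions (23.8% of the 651).

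**Figure D3:**
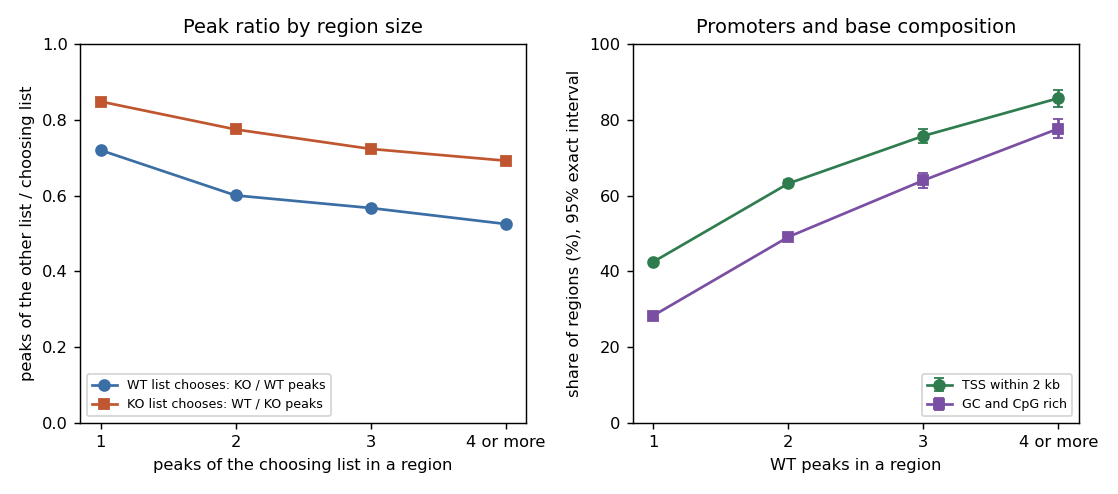
Left, peaks of the other list per peak of the choosing list in regions of 1, 2, 3 and 4 or more peaks, with WT (blue circles) or KO (red squares) choosing. Right, share of WT regions in percent with a TSS within 2 kb (green circles) and with high GC and CpG content (purple squares), bars being 95% exact intervals. The KO to WT ratio falls from 0.720 to 0.525, the WT to KO ratio from 0.848 to 0.692, and the TSS share climbs from 42.5% to 85.7%.

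Among single regions, the largest falls from WT to KO peak number were at Crim1 and Arhgef7 (8 peaks each), Fam196a, Slc25a21, a mitochondrial carrier (7 each). A fall of 6 peaks was shared by 10 regions, of which Pde3b was the widest. The region of Arhgef7 (chromosome 8, 11727562 to 11728274) contained the TSS at 11728105 and had 8 WT peaks over 713 bp. That of Slc25a21 (chromosome 12, 58297652 to 58298330) had 7 WT peaks over 679 bp, began 129 bp from the TSS and has its middle in the gene's UTR. Neither had a KO peak. Regions with 6 WT peaks and no KO peak lay at the miRNA gene AC102525.1 (chromosome 8, 12395110 to 12395630) and at Tox3, an HMG box protein (chromosome 8, 92871543 to 92871996, in coding sequence). Arhgef7, AC102525.1 and Tox3 all lie on chromosome 8, which had the lowest KO to WT ratio of the autosomes over all merged WT regions (0.548). There were 12 regions with 5 WT peaks and no KO peak, 11 of them within 2 kb of a TSS, for example at Vezf1 and Fzd3. The widest of the 12 was the other one, 22008 bp from a Y_RNA gene (chromosome 6, 47609150 to 47609795). None of its WT peaks had a centre that occurs at a single place of the genome, so that its reads could have been placed at another copy.

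The largest rise was at Nefh, which encodes the heavy neurofilament chain (chromosome 11, 4847084 to 4847520, 547 bp downstream of the TSS, in coding sequence), where 4 WT peaks faced 7 KO peaks. A rise of 2 peaks was shared by 6 regions, among them Slc25a28, a mitochondrial iron carrier (6 and 8, chromosome 19, 43749339 to 43750004). Dedd, a death effector domain protein, had 5 and 7 (chromosome 1, 173259167 to 173259809), and Mgat1, an enzyme of N-glycan synthesis, had 4 and 6 (chromosome 11, 49057367 to 49057867). Of the 4 regions that rose from 4 to 6 peaks, Mgat1 was the widest and the next widest lay 4287 bp from the pseudogene AY036118 (chromosome 17, 39981009 to 39981485), the others being at Rev1 and Kctd7. The region near AY036118 was 1 of 5 broad regions at that locus, the others having 5, 7, 5 and 4 WT peaks and 5, 7, 4 and 4 KO peaks, so that by these counts the cluster was about as dense in KO as in WT. The mouse assembly carries a ribosomal RNA unit at this locus, and such units are present in many more copies in the genome than in the assembly, and the part of this in the counts was not tested.

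Of the 4944 WT peaks in broad regions, 4120 (83.3%) had a KO peak within 100 bp, and 66.6% shared at least 1 bp with one. Peaks at the edges of a region had such a partner less often than inner peaks (78.8%, 77.0 to 80.5%, and 86.9%, 85.6 to 88.1%). Inner peaks have neighbours on both sides from which a KO peak can be shared. Each peak name carries a number that runs within its chromosome, and what orders these numbers is not stated. The peak with the lowest number of its region had a partner in 88.8% of regions (86.8 to 90.6%), and the other peaks in 81.8% (80.5 to 83.0%).

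Regions were then grouped by how many KO peaks they had. Median GC content was 71.5% in the 78 regions without a KO peak, 68.0% in the 557 regions with KO peaks at up to 50% of the WT number, 67.7% in the 329 above 50% but below WT, 69.0% in the 86 with equal numbers and 70.2% in the 33 with more. The share with a TSS within 2 kb was 82.1%, 83.5%, 88.8%, 87.2% and 97.0% in the same order. The median of the lowest peak number in the name was 1630, 955, 525, 445 and 303, so that regions with more KO peaks held lower-numbered WT peaks. These groups were not tested against one another.

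Broad regions were found at promoters more often than single peaks. A TSS of GENCODE vM1 lay within 2 kb of 928 broad regions (85.7%, 83.5 to 87.7%), against 42.5% of regions of 1 WT peak, 63.2% of 2 and 75.7% of 3. A TSS lay inside 640 of them (59.1%), against 11.6%, 32.0% and 44.1%, although a wider region covers a TSS more easily. The nearest gene was protein-coding for 987 regions (91.1%), a pseudogene for 26, a lincRNA for 20, a processed transcript for 16, a miRNA for 11 and a snRNA for 10. The regions within 2 kb of a TSS had 0.534 KO peaks per WT peak and those farther away 0.471. Of the 640 regions with a TSS inside, 65 (10.2%) had TSSs on both strands, and their KO to WT ratio of 0.531 was close to the 0.551 of regions with TSSs of 1 strand.

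The other 155 broad regions (14.3%) lay over 2 kb from any TSS, of which 24 were exonic, 32 intronic and 99 intergenic. Their median GC content was 60.4%, against 69.1% within 2 kb of TSSs, and 22 of them (14.2%) held a peak whose centre occurs more than once in the genome, against 44 (4.74%). The most WT peaks were found 27439 bp from a U6 snRNA gene (8 WT and 4 KO peaks, chromosome 7, 80762781 to 80763536), 16890 bp from Gm3597 (7 and 5, chromosome 14, 7119456 to 7120369), 7951 bp from Tbx18, a T-box factor (7 and 3, chromosome 9, 87634046 to 87634841), 2138 bp from Csf2ra, a cytokine receptor chain (7 and 2, chromosome 19, 61301408 to 61302183), and 22855 bp from Rnf180, a ubiquitin ligase (7 and 4, chromosome 13, 106083974 to 106084709). The last 4 are the widest of 7 such regions with 7 WT peaks, of which 6 had fewer KO peaks than WT peaks, while a region 3440 bp from AY036118 had 7 of each. In the region near Gm3597, 3 of the 7 WT peaks had a centre that occurs more than once in the genome.

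In the 575 broad regions whose inside TSSs were all on 1 strand, slightly more WT peaks lay upstream of the TSS than downstream of it, and the share upstream was larger for KO peaks. Of 2664 WT peaks, 52.7% (50.8 to 54.6%) had their middle upstream, with a median of -11 bp from the TSS. Of 1467 KO peaks, 62.2% (59.7 to 64.7%) were upstream, with a median of -61 bp. An upstream WT peak had a KO peak within 100 bp in 1283 of 1404 cases (91.4%, 89.8 to 92.8%) and a downstream WT peak in 1001 of 1260 (79.4%, 77.1 to 81.6%). The regions reached a median of 235 bp upstream (quartiles 148 and 334 bp) and 217 bp downstream (96 and 319 bp).

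The position of WT peaks depended on the list that chose the regions. In 314 broad regions chosen from the KO list, 60.9% of 1013 WT peaks (57.8 to 63.9%) and 61.6% of 1396 KO peaks (59.0 to 64.2%) were upstream, with medians of -53 and -52.5 bp. Where KO chose, the intervals of WT and KO thus overlapped, and the share of WT peaks upstream was higher than where WT chose.

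**Figure D4:**
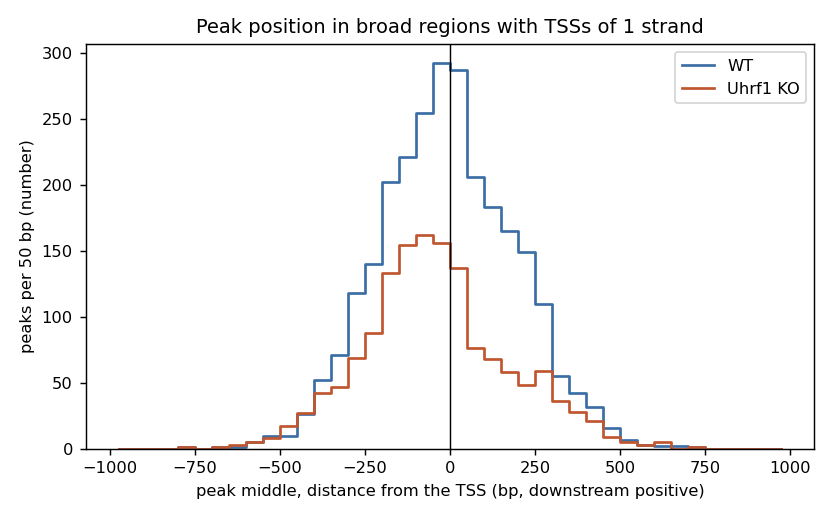
Number of peaks per 50 bp by the distance of the peak's middle from the TSS in bp (downstream positive) in the 575 broad regions with TSSs of 1 strand; blue line WT, red line Uhrf1 KO. The 2664 WT peaks centre near the TSS (median -11 bp), while the 1467 KO peaks centre upstream (median -61 bp) and are fewest relative to WT on the downstream side.

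Broad regions were rich in G, C and CpG. Their median GC content was 68.3% (quartiles 62.9 and 72.8%, range 30.0 to 85.6%), against 59.4% in regions of 1 WT peak, 63.0% for 2 and 66.1% for 3. The median ratio of observed to expected CpG was 0.822, against 0.422, 0.659 and 0.758, and a broad region held a median of 41 CpGs (quartiles 28 and 56). A GC content of at least 55% together with a CpG ratio of at least 0.65, as in CpG islands, was met by 841 broad regions (77.7%, 75.1 to 80.1%), against 28.3%, 49.1% and 64.0%, and by 91.3% of the 23 regions of 8 or more peaks. Over the central 300 bp, median GC content was 68.7% in broad regions against 55% in regions of 1 peak. The window has the same length in all regions. In regions of 1 peak, 101 bp wide, most of it lies outside the peak, so that the comparison still depends on width.

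The broad regions of each list differed in this respect. Those reaching 4 peaks in KO only had a median GC content of 65.2%, a CpG ratio of 0.743 and a TSS within 2 kb in 74.8% of cases (70.6 to 78.7%). Those reaching it in WT only had 68.1%, 0.815 and 85.4% (83.0 to 87.6%), and those reaching it in both lists had 68.5%, 0.823 and 89.4% (85.7 to 92.4%). The regions broad in both lists were also the widest, with a median of 653 bp against 465 bp for WT only and 442 bp for KO only.

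Words of promoter motifs were searched on both strands of the central 300 bp. In regions of 1 WT peak most of this window lies outside the 101 bp peak, so the shares compare unlike stretches. The SP word GGGGCGGGG, the GC box bound by Sp1, was present in 242 broad regions (22.3%, 19.9 to 24.9%), against 9.42% of regions of 1 WT peak, 16.6% of 2 and 23.0% of 3. The NRF1 word GCGCATGCG was present in 3.32% (2.34 to 4.57%), against 0.798% of regions of 1 peak. The TATA word TATAAA took the opposite course, with 2.68% (1.80 to 3.82%) against 9.27%. Within 2 kb of a TSS, the SP word was present in 24.0% of broad regions and 17% of regions of 1 peak, the NRF1 word in 3.34% and 1.55%, and the TATA word in 2.37% and 4.23%. The match is partial, since a TSS lay inside 640 of these 928 broad regions and 4727 of these 17249 regions of 1 peak. GC-rich words are met more often in GC-rich sequence whatever their use.

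Of the other words, the ETS word CCGGAAGT was present in 3.05% of broad regions and 2.22% of regions of 1 peak, the CCAAT word CCAATNNG in 13.6% and 12%, the CRE word TGACGTCA in 1.85% and 1.12%, the CTCF word AGGGGGCGC, which can overlap the SP word, in 3.23% and 2.16%, and the E-box CACGTG in 7.29% and 6.46%. The YY1 word AAGATGGCG was present in 1.29% and 2.34%, and the octamer ATGCAAAT, which is bound by Oct4, in 1.57% (0.917 to 2.50%) and 2.35%. Within 2 kb of a TSS, the octamer was present in 1.29% of both broad regions and regions of 1 peak, and the YY1 word in 1.19% and 2.00%. There the order turned for the ETS word (3.45% and 4.22%) and the E-box (7.54% and 8.08%). It was kept for the CCAAT (14.3% and 13.2%), CRE (2.05% and 1.93%) and CTCF words (3.77% and 2.72%). The Arhgef7 window shown above held none of these words. The word GTTCGANTC, part of the B box of tRNA genes, was added after the data had been seen. It was found in 3 broad regions (0.277%), at 1700064H15Rik, Zfp692 and Wbp4, against 0.274% of regions of 1 WT peak.

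Broad regions were present at some gene groups known from ESCs and absent from others. Within 2 kb of a TSS of a gene, a broad region was present for 996 of 21418 autosomal protein-coding genes (4.65%). Among pluripotency genes, 4 of 30 had one (13.3%, 3.76 to 30.7%), with 18 WT and 16 KO peaks in all. Jarid2, a cofactor of Polycomb repressive complex PRC2, had 6 WT and 7 KO peaks (chromosome 13, 44828903 to 44829463). Rif1, a regulator of replication timing (chromosome 2, 51927493 to 51927830), Sall1, a zinc finger factor (chromosome 8, 91567146 to 91567653), and Tbx3, a T-box factor (chromosome 5, 120120650 to 120121065), had 4 and 3 each. Peaks were also counted at 6 core pluripotency genes, none of which had a broad region. Within 2 kb of the TSS there were 8 WT and 4 KO peaks at Pou5f1, 2 and 4 at Sox2, 2 and 1 at Nanog, 9 and 7 at Klf4, 4 and 4 at Esrrb and 2 and 2 at Zfp42, in merged regions of at most 3 WT peaks. All 6 thus had open chromatin in both lists, which alone does not establish the identity of the cells.

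Among genes of the COMPASS and Polycomb complexes, 7 of 35 had a broad region (20%, 8.44 to 36.9%). For PRC2 they included the catalytic subunit Ezh2 (5 WT and 4 KO peaks), the subunit Eed (5 and 2) and Jarid2. For PRC1 they included Bmi1 (5 and 4), the chromodomain protein Cbx7 (4 and 2), and Kdm2b, which brings PRC1 to CpG islands (4 and 4). Phc1, another PRC1 subunit that is not on the list, had a pair of broad regions 140 bp apart, with 5 and 4 WT peaks and 2 KO peaks each. Uhrf1 itself, which is on this list, had no broad region, and peak positions do not check the knockout.

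Replication-dependent histone genes had a broad region in 13 of 67 cases (19.4%, 10.8 to 30.9%), but neighbouring genes shared them, and there were 8 regions with 37 WT and 24 KO peaks. They included Hist1h2bm (6 WT and 3 KO peaks), the pair Hist1h2an and Hist1h2bp (5 and 3), Hist1h4k (5 and 3) and the region of the pseudogene Hist2h3c2 at Hist2h2aa2 (5 and 2), none of whose WT peaks had a single-copy centre. The region of Hist1h1e and Hist1h2be had 4 WT and 5 KO peaks. Among splicing factor genes, 3 of 21 had one (14.3%), Hnrnpa2b1 with 4 and 2, Hnrnpc with 4 and 3 and Srsf6 with 4 and 4.

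Of 68 lineage regulators, 3 had a broad region (4.41%). The T-box factors Eomes and Tbx2 had 4 and 1 and 6 and 2 peaks in WT and KO, and the bHLH factor Twist1 had 6 and 4. Of 20 immediate early genes, 2 had one, Atf3 with 5 and 4 and the phosphatase gene Dusp1 with 6 and 2. Of 79 ribosomal protein genes, 2 had one (2.53%), Rpl13a with 4 and 4 and Rps19 with 5 and 3. No broad region was found at any of 39 Hox genes or of 13 developmental genes named in the published text, which at these numbers allows shares of up to 9.03% and 24.7%. Sall1, which the paper names as a pluripotency gene with a loss of H3K4me3, had one and was counted above with the pluripotency genes. The intervals of all groups but histone, COMPASS and Polycomb genes reached the 4.65% of all protein-coding genes or went below it. The histone interval treats genes as independent, although the 13 genes had 8 regions among them. It is therefore too narrow to set histone genes apart from that share.

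The 61 broad regions of chromosome 8 had fewer KO peaks per WT peak than those of any other autosome. They held 276 WT and 116 KO peaks (0.420), and 11 of them (18%) had no KO peak. On the other 18 autosomes the ratio ran from 0.463 on chromosome 18 to 0.602 on chromosome 13, and the share without a KO peak from 1.39% to 12.8%. The whole lists showed the same on chromosome 8, where all merged WT regions had a ratio of 0.548, the lowest of the 19. Without chromosome 8 the ratio over broad regions was 0.531 and the number without a KO peak was 67 of 1022 (6.56%). A difference in chromosome number between the cell lines and a difference in openness cannot be told apart from these lists. Broad regions made up 1.43% (chromosome 10) to 2.74% (chromosome 17) of the merged regions of an autosome.

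**Figure D5:**
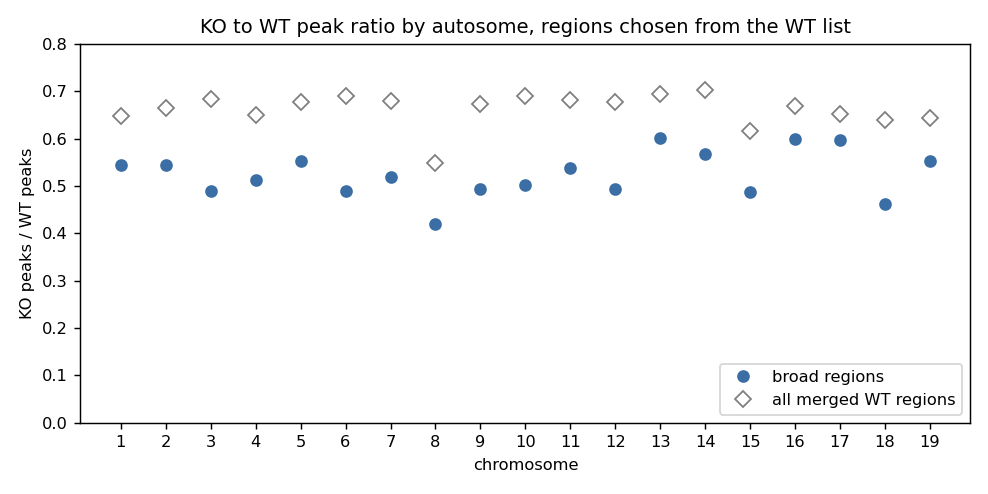
KO peaks per WT peak on each autosome for the broad regions (filled circles) and for all merged WT regions (open diamonds). Chromosome 8 is lowest in both, at 0.420 and 0.548, and on the other autosomes broad regions range from 0.463 to 0.602.

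Reads were mapped with a single reported alignment, so that a read from repeated sequence counts at only 1 of its copies. The central 31 bp occurred at a single place of the genome for 96.7% of WT peaks in broad regions (96.2 to 97.2%), against 92.3% of all autosomal WT peaks. All peaks were single-copy in 1017 broad regions (93.9%) and none in 15, and 73 of the 78 regions without a KO peak were wholly single-copy. In 2 broad regions WT peaks matched the mitochondrial genome. These were 1 of the 4 WT peaks of the region 61964 bp from Ccnh, which also had 4 KO peaks (GC content 39.2%), and 3 of the 7 WT peaks of the region at the pseudogene Gm13340, which had 8 KO peaks (chromosome 2, 22445025 to 22446014, GC content 35.9%). Transposition of mitochondrial DNA is common in ATAC-seq, and its part in these 2 regions was not tested.

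Broad regions could lie close together. There were 29 pairs at most 5 kb apart, among them the pair at Phc1 and a pair 124 bp apart at Smc4, a condensin subunit, with 4 and 5 WT peaks and 1 KO peak each. In the flanks from 100 bp to 1 kb there were 1358 further WT peaks, at 57.1% of the regions, and 1080 KO peaks, at 51.0%. The ratio of KO to WT peaks was thus nearer to equality around the broad regions than inside them, where the rule had selected for WT peaks.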

How the data were processed

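ATAC-seq peaks of 1 WT and 1 Uhrf1 KO library were analysed. Per the labels and methods, the authors used Bowtie2 2.1.0 (local mode, 1 reported alignment per read, genome mm9) and kept fragments under 150 bp. HOMER 4.9.1 is listed in the submitters' processing notes without its role, and the peak threshold and any shift of read ends are not given in the sources used here. The values deposited by the authors are peak positions with a score that is always 1.

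Merging and counting were done with Python 3.11.15, numpy 2.4.6, pandas 2.3.3, scipy 1.17.1 and numba 0.67.0, and were checked on 5000 simulated regions with 0 errors. Figures were drawn with matplotlib 3.10.9. TSSs came from GENCODE vM1 and sequence from NCBIM37, both on the build of mm9. No test between genotypes was made. The interval of the peak ratio treats peaks as independent. Regions were named by rank: the 10 with most WT peaks, the 5 largest falls and rises, 5 without KO peaks, those at listed genes and those at the threshold, with ties broken by WT peak number and width. The distal regions, other regions named at a tied rank, the pairs and the regions of repeated or mitochondrial sequence were chosen after their values were seen. Members and gene lists were chosen with earlier results of these data known. Some listed items are not reported here.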

Additional observations from a re-analysis of the deposited data

Results flagged for a closer look

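The rule left out the sex chromosomes, and 28 regions of 4 or more merged WT peaks lay on chromosome X, outside the autosomal set described above. The one with most peaks, at Usp9x, a deubiquitinating enzyme, had 10 WT and 7 KO peaks. The largest fall was at Odz1, with 6 WT peaks and no KO peak, and the largest rise was at Shroom2, with 4 WT and 7 KO peaks.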

How the results depend on the processing

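No paired analysis was possible because there is a single library of either genotype. The number of broad regions, 1083, was 676 with merging at 50 bp, 1855 at 200 bp, 3341 for 3 or more peaks and 391 for 5 or more. The KO to WT peak ratio of 0.525 reversed when the KO list chose the regions (1.45, or 1.48 with the WT list at KO length). It was 0.772 with both lists merged (0.841 at equal length), 0.559 with the WT list at KO length, 0.496 for KO peaks sharing at least 1 bp, 0.489 by covered bp, and 0.482 and 0.580 with merging at 50 and 200 bp. The share of 85.7% at TSSs was 83.3% within 1 kb, 82.9% for protein-coding TSSs, 79.0% for 3 or more and 88.2% for 5 or more peaks, and 79.1% when KO chose. Median GC content of 68.3% was 66.8% and 69.8% for 3 or more and 5 or more peaks. Histone genes with a broad region were 13 within 2 kb and 29 within 10 kb. Of 44 alternative values, 23 stayed within the interval of the main value or, for counts, within 1.5 times of it, among them those without chromosome 8 and from single-copy peaks. Chosen after seeing the data were the values at equal list length other than 0.559, and some of those without chromosome 8 and from single-copy peaks. The choosing list decides which regions are broad. KO had fewer peaks than WT in regions chosen by WT or by both lists merged, and more in regions chosen by KO. The cause of the changes was not tested. Without replicates and read depth, no single region can be called changed.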
